A study of Mus musculus with 34 samples.

Results

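A set of 10 genes of the testis pathway and of steroid synthesis was described in the gonads of mouse embryos labelled female, at embryonic day 13.5, an age at which male and female gonads have already taken separate courses. The genes are chosen by name, with no threshold on a measured value: Sox9, Amh, Dmrt1, Fgf9 and Nr5a1 of the testis pathway, and Star, Cyp11a1, Hsd3b1, Cyp17a1 and Insl3 of Leydig cell function. Of these 10 genes, 8 had a row in both tables used here, among 28706 genes in gonadal soma and 27021 in primordial germ cells (PGCs). Cyp17a1, which makes androgen precursors, and Insl3, a Leydig cell hormone of testis descent, were not analysed here.

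All embryos were Gulo-/- on a C57BL/6 background, so they could not make vitamin C and depended on what the maternal diet supplied. The vitamin C withdrawn groups comprised 3 libraries of soma and 5 of PGCs, and the vitamin C supplied groups comprised 4 of soma and 5 of PGCs, each made with an H3K9me2 antibody. Withdrawal covered the first part of gestation, and controls received a physiological supply. The assay was CUT&RUN, in which an antibody guides a nuclease that releases the chromatin around a histone mark, on 1000 sorted cells a library. PGCs were Oct4GFP-positive cells and soma was the Oct4GFP-negative rest of the gonad, which mixes supporting, stromal, endothelial and blood cells. Only statistics of each comparison were at hand, as a table of soma and a table of PGCs, so no value per library can be shown. The tables name neither the antibody nor the direction of subtraction; they were taken as H3K9me2, and soma values were read as withdrawn over supplied from how their errors behave. The PGC sign was assumed to match. The geometric mean of the effective library sizes was no less than 1512598 reads for soma and 613601 for PGCs. The submitters call the libraries biological replicates; whether they came from separate litters is not stated.

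The libraries are labelled female, yet Y-linked genes had signal in both tables. In the authors' deposited tables Uty averaged 6.04 log2 CPM in soma and 7.35 in PGCs. These stand for about 99.4 and 100.3 reads per library, as lower limits. Usp9y averaged 4.25 in soma and 5.64 in PGCs, Zfy1 4.53 and 5.48, and Kdm5d 3.47 and 4.53 in the authors' deposited tables. Eif2s3y (2.95 and 3.55) and Ddx3y (2.22 and 3.33) averaged lower there. Per kb, the median of 37 Y-linked genes in soma was -3.15, against -0.48 for autosomal genes, and that of 54 in PGCs was -2.31, against -0.55. The median of X-linked genes was -0.36 in soma and -0.46 in PGCs. Single Y-linked genes differed on this scale. Uty stood at -1.29 in soma and 0.025 in PGCs. Sry, at about 3.11 and 3.36 reads per library as lower limits, stood at 0.79 and 2.21. The other named genes lay from -3.08 for Usp9y to -1.64 for Zfy1 in soma. In PGCs they lay from -1.72 for Eif2s3y to -0.70 for Zfy1. Sry thus lay above the autosomal median in both tables, and Uty in PGCs only. In soma, the 37 Y-linked genes had a median log2 fold change of 0.049, where the median gene stood at 1.04. By a limma adjusted p under 0.05 in the authors' deposited table, 2 of the 37 rose and 2 fell. Of all soma genes, 68.2% rose and 0.101% fell. The tables hold averages over libraries, so whether this signal came from all libraries or a few cannot be told apart, and its part in the values of the testis genes was not tested.

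In the XY gonad, SOX9 turns on the Sertoli cell program, FGF9 helps to sustain it and DMRT1 keeps it in place. Sertoli cells then secrete AMH, and Leydig cells, under the nuclear receptor NR5A1, make androgens from cholesterol. STAR carries cholesterol into mitochondria, CYP11A1 cleaves its side chain to give pregnenolone, and HSD3B enzymes act on that product. H3K9me2 is a histone mark of repressed chromatin. Not all of these genes are off in the fetal ovary: Nr5a1 is also known from ovarian soma and Dmrt1 from germ cells. The tables measure chromatin and not RNA, so neither the silence of the genes nor the identity of the sorted cells could be checked.

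The sequences just upstream of an annotated start of Cyp11a1, Hsd3b1 and Fgf9 are shown because these genes rose in soma and stand for a mitochondrial enzyme, a second steroid enzyme and a secreted signal. They come from RefSeq (GRCm38.p6, the assembly behind mm10), which gave such windows for 4 of the 10 genes, Insl3 included. Each is 250 bases, read 5′ to 3′ in the direction of transcription, at chr9:58014702-58014951 on the plus strand for the downstream one of the 2 Cyp11a1 starts, chr3:98859795-98860044 on the minus strand for Hsd3b1 and chr14:58072436-58072685 on the plus strand for Fgf9. Capitals mark AGGTCA, the half-site of nuclear receptors that ends the longer NR5A1 element AAGGTCA.
Cyp11a1: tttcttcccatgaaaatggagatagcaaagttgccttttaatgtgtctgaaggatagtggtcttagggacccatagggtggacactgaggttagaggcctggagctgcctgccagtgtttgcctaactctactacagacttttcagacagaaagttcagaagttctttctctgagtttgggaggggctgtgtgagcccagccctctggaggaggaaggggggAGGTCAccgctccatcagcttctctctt
Hsd3b1: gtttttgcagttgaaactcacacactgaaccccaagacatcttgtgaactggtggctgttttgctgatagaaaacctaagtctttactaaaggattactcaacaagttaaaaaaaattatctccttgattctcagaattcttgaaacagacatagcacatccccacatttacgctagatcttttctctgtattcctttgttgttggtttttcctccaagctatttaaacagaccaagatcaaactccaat
Fgf9: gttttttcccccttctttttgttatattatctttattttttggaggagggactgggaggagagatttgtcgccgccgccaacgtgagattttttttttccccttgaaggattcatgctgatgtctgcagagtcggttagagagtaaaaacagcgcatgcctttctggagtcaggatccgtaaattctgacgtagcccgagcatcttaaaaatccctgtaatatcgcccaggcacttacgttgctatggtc
On either strand, AGGTCA was found once, in the Cyp11a1 window, starting 28 bases before the annotated start. The window of the earlier Cyp11a1 start, at chr9:57997774-57998023, held none of the motifs searched and 4 CG dinucleotides. The same letters were in 14.02% of the 32851 RefSeq windows of this length. The full AAGGTCA, which contains AGGTCA, was in none of these 3 windows and in 4.08% of all. A motif of GATA factors, spelled AGATAA, occurred once in the Hsd3b1 window and once in the Fgf9 window, and in 9.99% of all windows. The SOX motif, spelled AACAAT, was in none of these 3 windows and in 9.42% of all. The Fgf9 window held 11 CG dinucleotides, against 1 each in the Cyp11a1 and Hsd3b1 windows and a median of 6 over all windows. A match says only that the letters are there. The Cyp11a1 and Fgf9 windows lie inside the annotated span of their gene, since each gene also has an earlier start, and the Hsd3b1 window lies just outside it. The regions in which reads were counted are not stated, so no value can be tied to a window.

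The average level of each gene followed its length. Across the 27348 soma genes with a RefSeq length, the authors' deposited average log2 CPM and gene length had a Spearman correlation of 0.93. For the 25838 PGC genes it was 0.88. Both describe genes that share libraries. CPM values are read counts scaled by a library size, and how that size was set is not stated. Dmrt1 (chromosome 19, 25505618 to 25604328, 98.7 kb) had the highest average of the 8 genes, at 6.14 log2 CPM in soma and 6.27 in PGCs in the authors' deposited tables. Amh, a gene of 2.44 kb, had the lowest, at 0.63 in soma and 0.74 in PGCs in the authors' deposited tables. These averages stand for about 107 reads per library for Dmrt1 and 2.34 for Amh in soma, and for 47.5 and 1.03 in PGCs, as lower limits. The 2 tables were scaled separately, so levels are not compared between them.

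Per kb of gene, Sox9 had the highest level of the 8 genes in both tables. Its average less the log2 of its length in kb was 0.31 in soma and 1.07 in PGCs, above the value of 90.5% and 93.2% of genes. The other genes lay between -0.84 for Star and -0.16 for Hsd3b1 in soma on this per-kb log2 scale, beside a median gene at -0.47. In PGCs they lay between -0.95 for Star and -0.35 for Dmrt1, beside a median gene at -0.55. Shorter genes tended to higher levels per kb over all genes (Spearman correlation with length -0.16 in soma and -0.25 in PGCs), and Sox9 spans only 5.55 kb.

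The first comparison set withdrawn against supplied soma. The signal over 5 of the 8 genes rose: Dmrt1, Fgf9, Nr5a1, Cyp11a1 and Hsd3b1. It did not pass for Amh, Star and Sox9, and none of the 8 fell. The call was a limma adjusted p under 0.05, as the authors' deposited table gives it. By that rule 68.2% of all soma genes rose and 0.101% fell, so 5 of 8 is near the background. Their median log2 fold change was 1.16, against 1.04 for all genes in the authors' deposited table, where the median gene stood 2.06-fold higher. How the counts were scaled is not stated. Whether the scaling gave this common rise, and with it the 5 calls, was not tested.

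Steroid enzymes had the largest fold changes among the 5 genes called. Cyp11a1 (chromosome 9, 57998024 to 58027031) had an implied group mean of 5.03 log2 CPM in withdrawn soma and 3.49 in supplied soma. Such means were worked out from the average and the fold change of each gene, and are approximate because voom weights libraries. Cyp11a1 rose 2.91-fold (95% interval 1.91 to 4.44), a log2 fold change of 1.54 ± 0.31 (SE; limma adjusted p = 9.9e-06 in the authors' deposited table). For Hsd3b1 (chromosome 3, 98842356 to 98859794) the implied means were 4.83 log2 CPM in withdrawn and 3.32 in supplied soma. It rose 2.86-fold (95% interval 1.84 to 4.42), or 1.51 ± 0.32 on the log2 scale (SE; limma adjusted p = 2.41e-05 in the authors' deposited table). Both genes thus moved by about the same amount, with intervals that overlap almost fully. Here and below, standard errors and intervals use a variance pooled over genes. They do not measure a gene's own spread between libraries.

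Star (chromosome 8, 25808474 to 25815982) had the same implied mean in both groups, 2.07 log2 CPM in withdrawn and 2.06 in supplied soma. Its log2 fold change was 0.0067 ± 0.50 (SE; limma adjusted p = 0.991 in the authors' deposited table), with a 95% interval of -0.98 to 1.00 that stops just short of the median of all genes. At no fewer than about 6.34 reads per library, the interval runs from 0.506-fold to 1.99-fold. Nr5a1 (chromosome 2, 38692656 to 38714542), the receptor that drives many steroid genes, stood at 4.37 log2 CPM in withdrawn and 3.18 in supplied soma. It rose by 1.19 ± 0.34 on the log2 scale (SE; limma adjusted p = 0.00133 in the authors' deposited table). The Nr5a1 call was lost with the 5 residual degrees of freedom and the same pooled standard error (adjusted p = 0.051). In that setting the other 4 calls passed narrowly (adjusted p = 0.0446 to 0.0476).

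Among the Sertoli cell genes, Dmrt1 had the smallest standard error. Its implied means were 6.78 log2 CPM in withdrawn and 5.66 in supplied soma, and it rose by 1.12 ± 0.24 on the log2 scale (SE; limma adjusted p = 2.54e-05 in the authors' deposited table). Fgf9 (chromosome 14, 58070671 to 58112854) had 5.41 log2 CPM in withdrawn and 4.38 in supplied soma, and rose by 1.03 ± 0.28 (SE; limma adjusted p = 0.00069 in the authors' deposited table). Both changes lie within 1 SE of the median gene at 1.04. Amh (chromosome 10, 80805240 to 80807679) had the highest fold change of the 8 genes and the largest standard error. It stood at 1.53 log2 CPM in withdrawn and -0.050 in supplied soma, a log2 fold change of 1.58 ± 0.76 that just missed the threshold (SE; limma adjusted p = 0.0532 in the authors' deposited table).

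**Figure D1:**
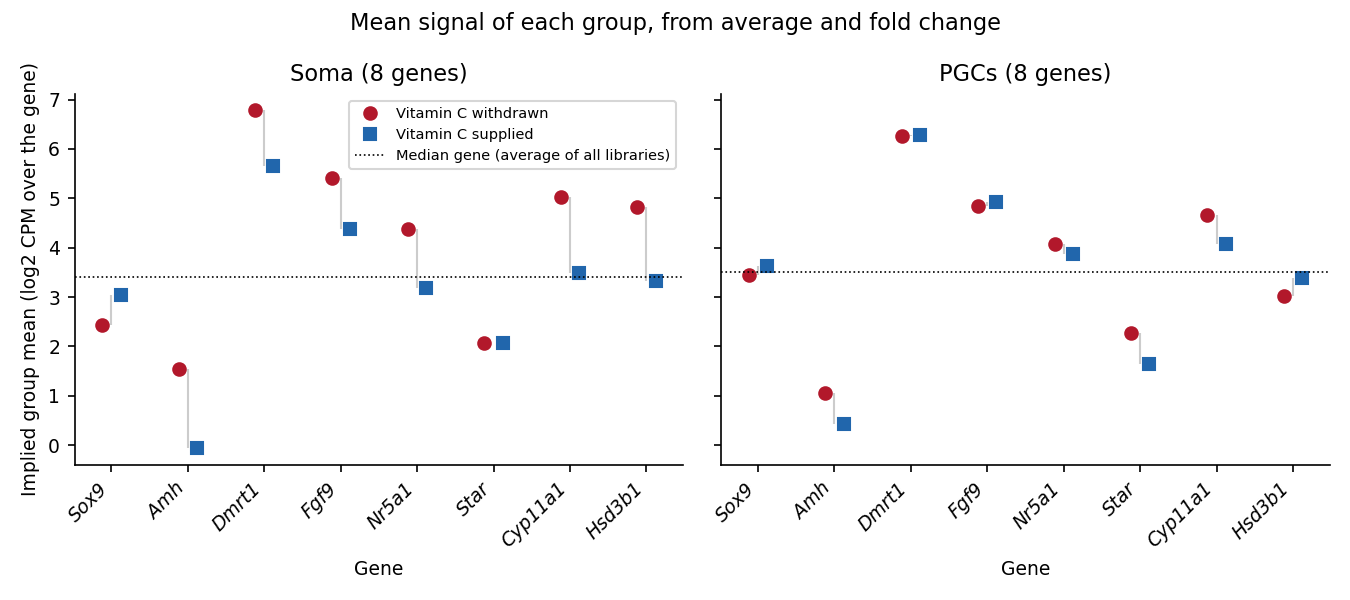
Implied group mean of the signal over each gene (log2 CPM), withdrawn as red circles and supplied as blue squares, in soma (left) and PGCs (right). The dotted line is the average of the median gene. In soma, 6 of 8 genes lie higher in withdrawn libraries, Star lies level and Sox9 lower; in PGCs the means differ by at most 0.64 log2 units.

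Sox9 had the lowest fold change of the 8 genes. Over this gene (chromosome 11, 112782210 to 112787757) the implied mean was 2.44 log2 CPM in withdrawn and 3.03 in supplied soma. Sox9 had about 10.4 reads per soma library, as a lower limit. Its log2 fold change was -0.59 ± 0.43 (SE), which did not pass (limma adjusted p = 0.206 in the authors' deposited table), with a 95% interval of -1.44 to 0.26. Only 3.21% of all soma genes had a log2 fold change below 0 in the authors' deposited table, and Sox9 was the 1 such gene of the 8.

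**Figure D2:**
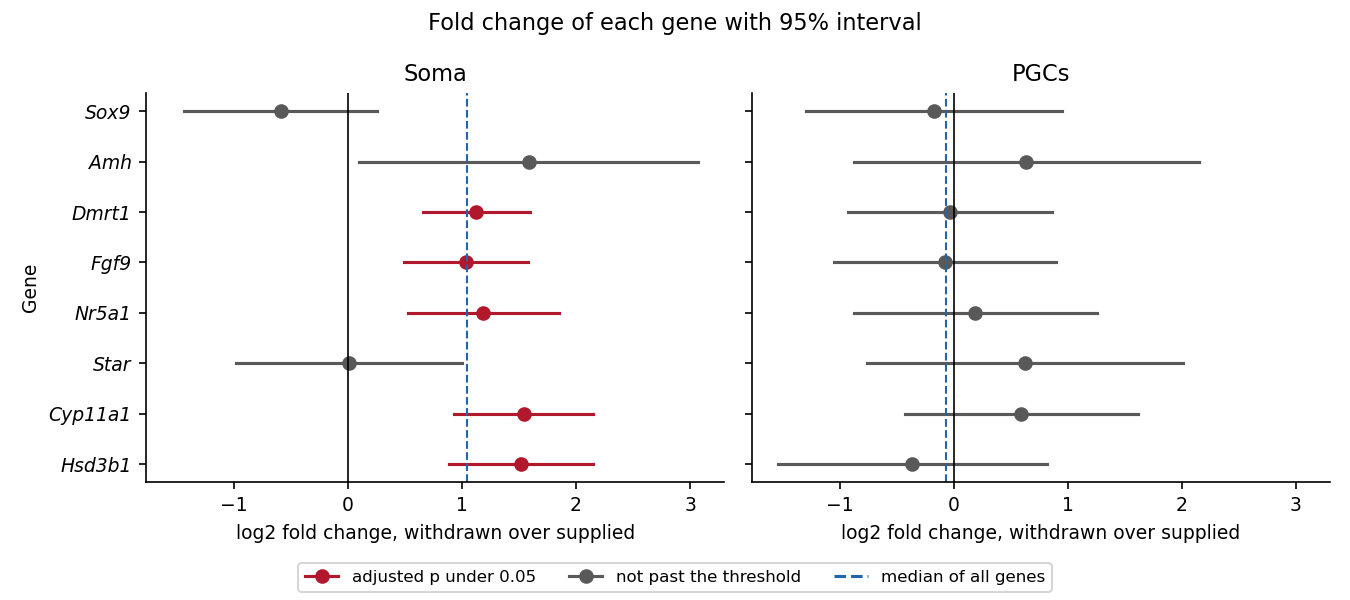
Log2 fold change of each gene, withdrawn over supplied, with its 95% interval, in soma (left) and PGCs (right). Red marks an adjusted p under 0.05, grey a gene not past it, and the dashed line the median of all genes, 1.04 in soma and -0.064 in PGCs. Every PGC interval includes 0, and the Sox9 interval in soma lies wholly below the soma median.

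Because most soma genes shifted together, each gene was also set against the median of the table. Sox9 then lay 1.63 log2 units below the median gene, with a value of -1.63 ± 0.43 (SE; adjusted p = 0.017 over all genes, from limma's standard errors). It was the 1 gene of the 8 called, on a background of 1.3% of genes called lower and 0.0488% called higher. The call was the same against a running median of genes of like average (-1.58, adjusted p = 0.0247). It ended when the degrees of freedom of the 7 soma libraries alone were used (adjusted p = 0.999), where 0 of 28706 genes were called lower. Star lay at -1.03 relative to the median (adjusted p = 0.535). Cyp11a1 and Hsd3b1 lay 0.50 and 0.47 above it (adjusted p = 0.722 and 0.774), and Nr5a1, Dmrt1 and Fgf9 lay at 0.15, 0.083 and -0.0092 (adjusted p = 0.974 to 0.998). Amh lay at 0.54 (adjusted p = 0.939). None of the 5 genes that rose was called against the median.

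**Figure D3:**
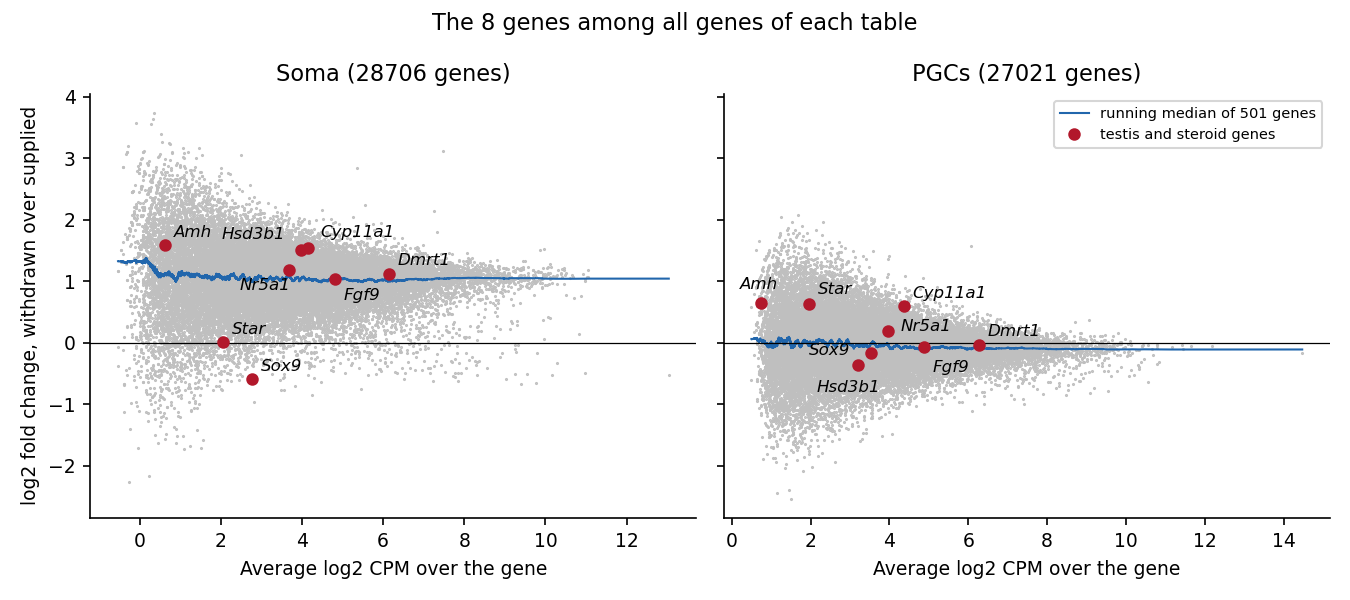
Average log2 CPM (x axis) and log2 fold change, withdrawn over supplied (y axis), of all genes as grey points, with the 8 testis and steroid genes in red and the running median in blue, for soma (left) and PGCs (right). In soma, Sox9 at -0.59 lies at the lower edge of genes of its average, while Dmrt1 and Fgf9 lie on the running median.

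The 3 nearest measured genes on each side, 48 in all for the 8 genes, rose in 34 cases (70.8%) in the authors' deposited table, close to the background of 68.2%. Sox9 lay below all 6 of its neighbours, which are lncRNA genes and ranged from 0.78 to 1.44 in log2 fold change in the authors' deposited table. The nearest on the left, BC006965, 70.9 kb away, rose by 0.98 ± 0.26 (SE; limma adjusted p = 0.000677 in the authors' deposited table). The nearest on the right, Gm11681, 4.97 kb away, stood at 0.79 ± 0.50 and did not pass (SE; limma adjusted p = 0.139 in the authors' deposited table).

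Star also lay below its 6 neighbours, which ranged from 0.33 to 1.21 and of which 4 rose in the authors' deposited table. The lowest, Hgsnat at 0.33 ± 0.29 (SE), did not pass and lay within the standard error of Star (0.50). Lsm1, of RNA decay, rose by 1.21 on its left, and Ash2l, of histone methyltransferase complexes, rose by 0.67 and lies 0.018 kb from Star on the other side, in the authors' deposited table. Cyp11a1 lay above its 6 neighbours, which ranged from 0.71 to 1.29 in the authors' deposited table, with Sema7a at 1.29 on the left and Ccdc33 at 0.81 on the right, both of which rose. The other 5 genes lay within the range of their neighbours. Amh at 1.58 sat between Sf3a2, a splicing factor gene 0.318 kb away that rose by 1.59, and Jsrp1, which rose by 1.76, in the authors' deposited table. Dmrt1 sat between Kank1, which rose by 1.15, and its relative Dmrt3, which rose by 0.81, in the authors' deposited table. Nr5a1 sat between Adgrd2-ps, which rose by 1.71, and Nr6a1, another nuclear receptor gene, which rose by 0.94, in the authors' deposited table. Beside Fgf9, 3110083C13Rik stood at 1.12 and Gm33321 at -0.00027, neither passing in the authors' deposited table. Differences between a gene and its neighbours were not tested, since the tables hold no covariance.

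**Figure D4:**
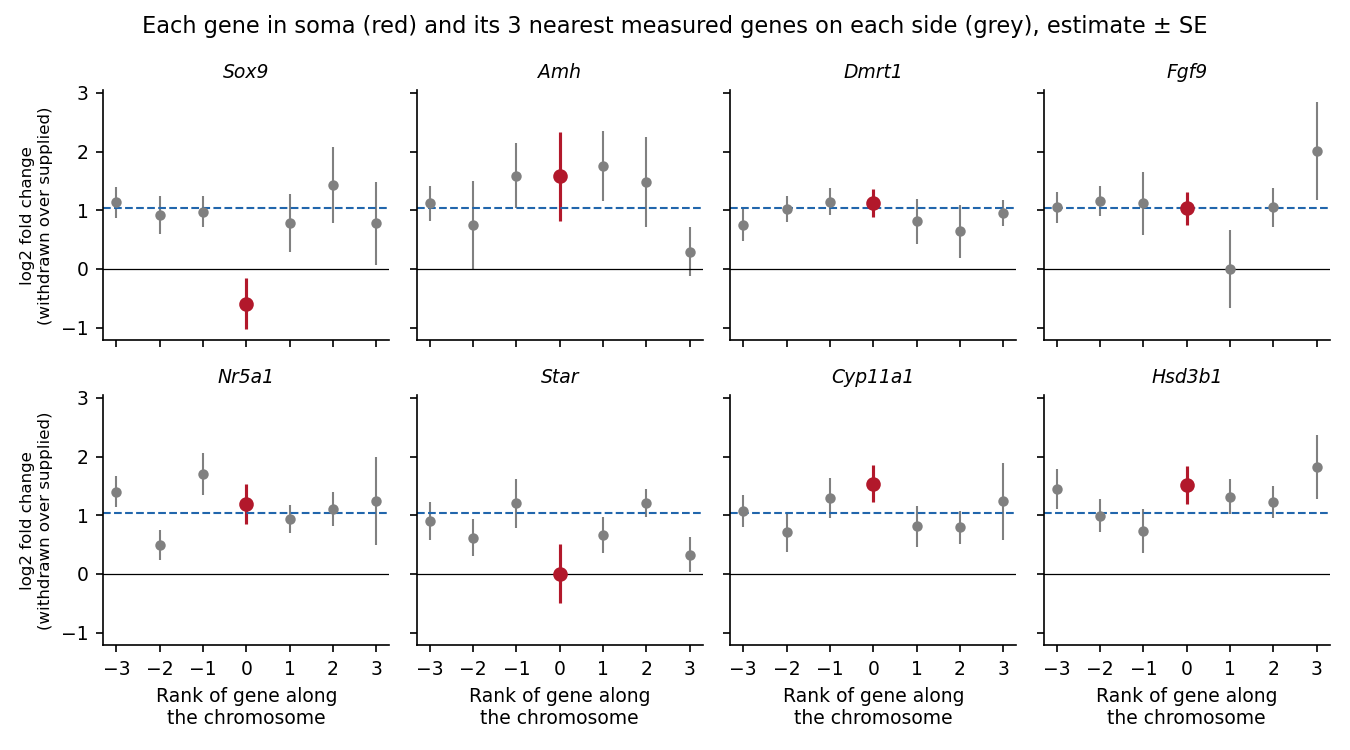
Log2 fold change in soma (withdrawn over supplied, ± SE) of each gene in red and of its 3 nearest measured genes on each side in grey, by rank along the chromosome. The dashed line is the median of all soma genes, 1.04. Sox9 and Star lie below every neighbour and Cyp11a1 above.

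Hsd3b1 lies in a cluster of related genes, and whether reads are shared among them was not tested. The 6 measured Hsd3b genes of chromosome 3 span 361 kb (98499071 to 98859794). Of them 5 rose in the authors' deposited table, where 68.2% of all soma genes did. Relative to the median of all soma genes, none of the 6 was called. Hsd3b5, best known from liver, rose by 1.60, Hsd3b2 by 1.45, Hsd3b4 by 1.03 and Hsd3b3 by 0.99 in the authors' deposited table. Hsd3b6, a form known from Leydig cells, stood at 0.73 ± 0.37 (SE; limma adjusted p = 0.0715 in the authors' deposited table). Hsd3b7, a bile acid enzyme on chromosome 7 outside the cluster, stood at 0.34 ± 0.63 (SE; limma adjusted p = 0.627 in the authors' deposited table).

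Wider lists of each pathway were counted in the same way. By the authors' deposited table, 23 of 32 further genes of testis determination and supporting cells rose, 0 fell, and the median log2 fold change was 0.92. Erbb4, a receptor tyrosine kinase, rose by 1.06, Tesc, a calcium-binding protein gene, by 1.45, and Zfpm2, the GATA4 cofactor FOG2, by 0.88 in the authors' deposited table. Sox8, a close relative of Sox9 that shares its role in the testis, stood at -0.011 ± 0.55 and Sry, the Y-linked testis switch, at 0.065 ± 0.69 in the authors' deposited table, the lowest values of the list. Relative to the median of all soma genes, 0 of these 32 genes were called in either direction.

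Among 39 further genes of steroid synthesis and Leydig cells, 37 were measured in soma. Of these, 29 rose and 0 fell by the authors' deposited table, and the median was 0.99. Hsd17b3, which makes testosterone, rose by 1.63 and Dhcr7, the last enzyme of cholesterol synthesis, by 1.58 in the authors' deposited table. Nr2f2, a nuclear receptor of Leydig precursor cells, stood at 0.23 ± 0.31 in the authors' deposited table. Ovarian supporting cell genes rose in 11 of 20 cases by the authors' deposited table, 0 fell, and their median was 0.78. Runx1 rose by 1.34, Lgr5 by 1.05 and the estrogen receptor gene Esr1 by 0.87 in the authors' deposited table. Fst, an activin antagonist, stood at -0.14 ± 0.42 and Foxl2, the granulosa cell regulator, at -0.031 ± 0.71 in the authors' deposited table. The shares that rose, 71.9%, 78.4% and 55.0%, were not tested against each other. They stand beside 68.2% of all soma genes. Below the median of all genes lay 24 of the 32 testis genes, 20 of the 37 steroid genes and 17 of the 20 ovarian genes. With residual degrees of freedom 5 testis, 12 steroid and 4 ovarian genes rose, against 32.1% of all soma genes. None of the 37 steroid or 20 ovarian genes was called relative to the median.

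**Figure D5:**
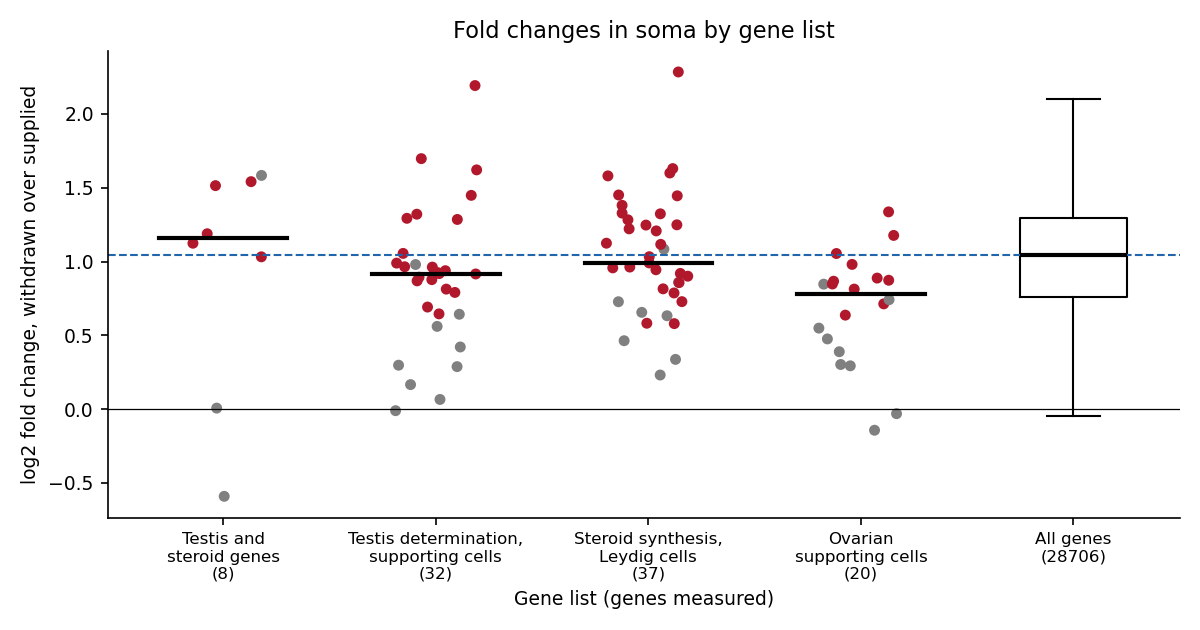
Log2 fold change in soma (withdrawn over supplied) of each measured gene by list, red where the adjusted p was under 0.05, with the list median as a black bar and all genes as a box (quartiles, whiskers to 1.5 times the box). The list medians are 1.16, 0.92, 0.99 and 0.78, beside the dashed median of all genes at 1.04.

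In PGCs no gene of the set passed. Adjusted limma p-values of the authors' deposited table were under 0.05 for 0 of the 8 genes and 0 of all 27021 (0%), and 0 of the 8 had an unadjusted p under 0.05, against 0.984% of all genes. Read as withdrawn over supplied, Cyp11a1 had the smallest unadjusted p, 0.256 by limma, with implied means of 4.66 log2 CPM in withdrawn and 4.07 in supplied PGCs and a log2 fold change of 0.59 (95% interval -0.43 to 1.62) in the authors' deposited table. Hsd3b1 stood at -0.36 (95% interval -1.54 to 0.82), Star at 0.63 (-0.76 to 2.01) and Nr5a1 at 0.19 (-0.87 to 1.26) in the authors' deposited table. Sox9 stood at -0.17 (-1.29 to 0.95), Amh at 0.64 (-0.87 to 2.15), Dmrt1 at -0.032 (-0.93 to 0.86) and Fgf9 at -0.075 (-1.05 to 0.90) in the authors' deposited table. The upper limits ran from 0.82 to 2.15 log2 units. Those of Hsd3b1, Dmrt1, Fgf9 and Sox9 lay under 1.04, the median shift of soma, and those of the other 4 genes above it. This split rests on the assumed PGC sign: with the sign turned, the upper limits of Cyp11a1, Star, Amh, Nr5a1 and Dmrt1, from 0.43 to 0.93, lay under 1.04, and those of Fgf9, Sox9 and Hsd3b1, at 1.05, 1.29 and 1.54, above it. In the further lists, 0 of 31 testis and 0 of 36 steroid genes passed in PGCs by limma, and 0 and 0 at an unadjusted p under 0.05. Emx2, a factor of early gonad growth, stood at -0.85 ± 0.58, Spry4, an inhibitor of FGF signalling, at 0.54 ± 0.56, Ren1, the renin gene, at 0.91 ± 0.73 and Cyb5a, a helper of CYP17A1, at 0.72 ± 0.59 in the authors' deposited table. Of the ovarian genes 0 of 20 passed, with Sp5 at -0.85 ± 0.61 and Nr2f1, a nuclear receptor gene, at -0.68 ± 0.52 in the authors' deposited table.

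The soma and PGC effects were compared gene by gene. With the PGC sign assumed as above, 0 of the 8 differences passed after adjustment over the 26721 genes in both tables (adjusted p = 0.105 to 0.631, from limma's standard errors), and 0% of those genes did. At an unadjusted p under 0.05 there were 2, against 34.5% of all genes: Hsd3b1, whose soma value exceeded its PGC value by 1.88 (95% interval 0.54 to 3.21), and Dmrt1, by 1.16 (0.15 to 2.17). The soma value was the higher in 6 of the 8 genes, against 95.7% of all genes, and the median difference was 0.97 for the 8 genes and 1.07 for all. Sox9 and Star differed by -0.42 (-1.83 to 0.99) and -0.62 (-2.32 to 1.08). These results rest on the assumed PGC sign. With the sign turned, Cyp11a1 would differ by 2.14 (adjusted p = 0.0473), in a setting that called 0.958% of genes. At an unadjusted p under 0.05 there would then be 4, Cyp11a1, Amh (2.22), Nr5a1 (1.38) and Dmrt1 (1.09), against 29.4% of all genes, while Hsd3b1 would differ by 1.15 (95% interval -0.18 to 2.49). The soma value would be the higher in 7 of the 8 genes, against 91.8% of all, with a median difference of 1.12.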

How the data were processed

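H3K9me2 and IgG CUT&RUN libraries were made from sorted cells of E13.5 gonads with 18 PCR cycles, per the labels' protocols. The submitters' processing notes name Trim Galore 0.4.0, Bowtie2 2.2.5, Picard and mm10. The sources used here do not give how reads were assigned to genes, filtered and scaled. Per the sheet names and file headers, the authors made their deposited log2 fold changes and log2 averages with voom and limma. The authors computed the deposited moderated t, treated here as a score, in the same fit, per the file headers. The authors computed the deposited p-values and adjusted p-values from that t, per the file headers. The authors computed the deposited B, a natural log of odds, in the same fit, per the file headers. The IgG libraries and the repeat family tables were not used here.

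Each log2 fold change divided by its t gave the standard error. Degrees of freedom implied by t and p were 143530 in soma and 216168 in PGCs, which are the residual 5 and 8 pooled over all genes. Standard errors, intervals and p-values thus rest on a variance shared by genes of like average, not on each gene's own spread between libraries. Values relative to the median, and soma minus PGC differences (Satterthwaite, two-sided, soma and PGC taken as independent), were adjusted by Benjamini-Hochberg over the whole table. Direction was read by fitting 1 smooth variance curve with 3 and 4 libraries a side: withdrawn minus supplied left a median misfit of 0.117% of the standard error and the reverse 1.38%. The minimum library size came from the steps between the lowest averages, of which 347 in soma and 281 in PGCs met whole reads and 0 did not (relative tolerance 3e-11). PCR reads are not independent molecules, so depth covers counting error only. Tests were checked on simulated data in which all genes shared the same spread, so each gene's own spread between libraries was not checked. Analyses used Python 3.11.15, scipy 1.17.1 and limma 3.58.1.

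Genes, lists and tests were chosen with earlier results of these data known. Named are the 10 genes, their nearest measured neighbours, the Hsd3b genes and, from each wider list, the 3 smallest p and 2 lowest fold changes in soma and the 2 smallest p in PGCs. Alternatives were residual degrees of freedom, centring on the median or on a running median of 501 genes, a threshold of 0.01 and leaving out the lowest 25% of averages. The residual setting kept the pooled standard errors and changed only the reference distribution of t. The 27348 soma and 25838 PGC genes with a RefSeq length are 95.3% and 95.6% of rows.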

Additional observations from a re-analysis of the deposited data

How the results depend on the processing

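No paired analysis was possible because the tables hold no value per library. For the same reason no library was left out in turn, so it is not known whether 1 library decides any value. With residual degrees of freedom 4 of the 8 genes rose in soma in place of 5, Nr5a1 being lost (adjusted p = 0.051), against 32.1% of all genes. The 4 passed narrowly in that setting, Dmrt1, Cyp11a1 and Hsd3b1 at an adjusted p of 0.0446 and Fgf9 at 0.0476. Against the table median or the running median 1 gene, Sox9, passed. The Sox9 call relative to the median gave 0 with residual degrees of freedom and 0 at an adjusted p under 0.01, where its adjusted p is 0.017. With the PGC sign turned 1 soma minus PGC difference, that of Cyp11a1, passed.

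Signs turned for values near 0 or near the median. Relative to the table median Fgf9 stood at -0.0092 and Star at -1.03 in soma, and Dmrt1 at 0.032 in PGCs. Relative to the running median Star stood at -1.03 and Fgf9 at 0.028 in soma, and Dmrt1 at 0.061 and Fgf9 at 0.031 in PGCs. Between soma and PGCs, with each value relative to its table median, Amh, Nr5a1 and Cyp11a1 differed by -0.16, -0.11 and -0.16, and Star by 0.63 with the PGC sign turned. None of these turned values passed the threshold. Leaving out the lowest 25% of averages, or a threshold of 0.01, changed no soma or PGC call on the deposited scale. The former removes Amh in soma, and both Amh and Star in PGCs. Depth limits Amh and Star most, at about 2.34 and 6.34 reads per soma library, and then Sox9, at about 10.4. These are lower limits.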

Other observations

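Cyp17a1 and Insl3 have no value here, and genes that overlap them were read in their place only as neighbours. Jak3, a cytokine receptor kinase gene whose span holds Insl3, stood at 0.53 ± 0.41 in soma and at -0.35 ± 0.59 in PGCs (SE, log2 fold change) in the authors' deposited tables. Gm41857, which overlaps Cyp17a1, stood at 0.40 ± 0.58 in soma in the authors' deposited table, while Borcs7 and As3mt beyond it rose by 0.82 and 0.97.

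Sry averaged 1.04 log2 CPM in soma and 2.45 in PGCs in the authors' deposited tables. These stand for about 3.11 and 3.36 reads per library, as lower limits.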
